A study of Mus musculus with 6 samples.

Results

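Ribbon synapse genes of the inner hair cell (HC) were followed in whole cochlear duct RNA of wild-type mice and of mice with 1 copy of Gfi1. They were taken by symbol from the deposited gene table, from a set proposed with earlier results of these data known, and the symbols were Otof, Slc17a8, Cabp2, Ctbp2, Bsn, Pclo, Cacna1d and Cacnb2. Of these 8 genes, 7 had a row among the 14865 genes of the table, and Cabp2 (ENSMUSG00000024857, chr19:4081578-4087340, plus strand), a calcium sensor that modulates the HC calcium channel, was not analysed here.

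The cochlear ducts came from C57BL/6 mice at postnatal day 8, before the onset of hearing, and polyadenylated RNA was sequenced in 3 libraries per genotype. Gfi1+/+ mice carried both functional copies of Gfi1, a transcription factor required for HC survival. In Gfi1Cre/+ mice the coding sequence of Cre recombinase replaced 1 copy, so that these mice were heterozygous for Gfi1 and carried Cre as well. Each Gfi1+/+ library was 1 mouse and each Gfi1Cre/+ library was a pool of 3 mice, so that a Gfi1Cre/+ value averages over animals and a Gfi1+/+ value does not.

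The ribbon synapse is the contact at which the inner HC passes the sound signal on to the afferent fibres of the spiral ganglion. A presynaptic ribbon, built largely of RIBEYE, holds glutamate-filled vesicles next to clusters of L-type calcium channels, and otoferlin couples the calcium signal to vesicle fusion. At the age sampled, the inner HC is not yet driven by sound, and its afferent contacts are still being refined. RIBEYE, bassoon, piccolo and the calcium channel subunits are not restricted to inner HCs, since neurons and other cells of the duct use the same genes. In RNA of the whole duct, fewer cells of a type and less RNA per cell cannot be told apart.

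The RefSeq sequence before the annotated start of a gene (GRCm38.p6) was available for 7 of the 8 named genes, in 12 windows, and for Otof none was printed. Shown are the windows of Slc17a8, whose count pools transcripts from start sites far apart, and of Bsn and Pclo, the related genes that stood highest in the same library. Each runs 5′ to 3′ on the strand of the gene and ends at the start site, or at the last base before an annotated exon. Capitals mark AATC or GATT, the core of the GFI1 recognition motif read on either strand.
Slc17a8 upstream start site, chr10:89621254-89621499: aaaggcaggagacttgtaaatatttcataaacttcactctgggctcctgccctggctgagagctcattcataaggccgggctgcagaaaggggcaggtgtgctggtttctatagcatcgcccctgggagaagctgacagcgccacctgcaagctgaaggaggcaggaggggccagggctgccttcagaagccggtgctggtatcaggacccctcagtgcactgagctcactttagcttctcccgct
Slc17a8 internal start site, chr10:89599816-89600065: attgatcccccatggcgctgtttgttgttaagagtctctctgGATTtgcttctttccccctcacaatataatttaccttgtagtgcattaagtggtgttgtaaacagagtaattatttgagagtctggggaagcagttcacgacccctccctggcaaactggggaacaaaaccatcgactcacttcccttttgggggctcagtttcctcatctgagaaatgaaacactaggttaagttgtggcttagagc
Bsn, chr9:108190385-108190633: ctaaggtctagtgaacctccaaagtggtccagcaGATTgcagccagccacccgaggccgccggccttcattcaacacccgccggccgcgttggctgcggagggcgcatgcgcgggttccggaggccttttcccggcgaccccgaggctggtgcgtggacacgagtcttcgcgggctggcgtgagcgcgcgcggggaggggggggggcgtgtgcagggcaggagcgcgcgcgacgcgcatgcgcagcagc
Pclo, chr5:14514668-14514917: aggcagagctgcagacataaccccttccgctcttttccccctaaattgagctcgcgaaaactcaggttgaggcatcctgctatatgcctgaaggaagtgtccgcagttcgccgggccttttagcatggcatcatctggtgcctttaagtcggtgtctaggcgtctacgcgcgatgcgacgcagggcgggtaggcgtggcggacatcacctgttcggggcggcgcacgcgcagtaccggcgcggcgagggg
The core was found once in the window of the internal Slc17a8 start and once in that of Bsn, 208 and 216 bases before the start. It was not found in the window of the upstream Slc17a8 start or in that of Pclo. Over all member windows, 5 of 12 held the core, against 22673 of the 32851 windows in the table, or 69%. Such a match describes the letters in the window and says nothing about binding.

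The values are read counts divided by 1 size factor per library, called normalized reads here, and they rest on between 13603908 and 19359753 reads counted on genes per library. Library values are given below in the order of replicates 1, 2 and 3, and means with Gfi1+/+ first. Gfi1 itself stood at 146.9, 160.2 and 151.9 normalized reads in the Gfi1+/+ libraries and at 135.8, 129.6 and 138.7 in the Gfi1Cre/+ libraries (log2 fold change -0.18, limma adjusted p = 0.999). The genotypes did not overlap for Gfi1, and part of its transcript remains in the knock-in allele. HC markers were present in every library, with Myo7a between 601.1 and 769.0 and Slc26a5 of the outer HC between 267.0 and 386.4 normalized reads. In the first principal component (54.3% of the variance), Gfi1+/+ replicate 1 stood apart at -44.0, with the other libraries between -0.304 and 16.2. The summed level of 4 Y-linked genes was at most 2.10 in each Gfi1+/+ library and between 793.7 and 1621 in Gfi1Cre/+. Xist, transcribed from the inactive X chromosome of females, had 7338 to 8138 normalized reads in Gfi1+/+ and 5359, 4987 and 2301 in Gfi1Cre/+. Each Gfi1Cre/+ pool thus held Y-linked and Xist RNA together, in differing amounts, so that genotype and sex cannot be told apart in any comparison.

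None of the 7 ribbon synapse genes differed between Gfi1Cre/+ and Gfi1+/+ cochleae at an adjusted limma p-value under 0.05. Of the 14455 genes tested, 4 did (0.0277%), among them the Y-linked Ddx3y, Eif2s3y and Kdm5d. At an unadjusted p-value under 0.05, 0 of 7 passed in limma, edgeR and DESeq2 alike, against 3.04% of all genes in limma (1.02% higher and 2.02% lower in Gfi1Cre/+). In all 7 the genotypes overlapped, while 7.52% of all genes had genotypes that did not overlap (3.45% higher and 4.07% lower). On the log2 scale, 4 of the 7 fold changes were above 0 and 3 were below it (50.1% of all genes were below 0), with a median of 0.0046 beside -1.2e-04 over all genes.

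**Figure D1:**
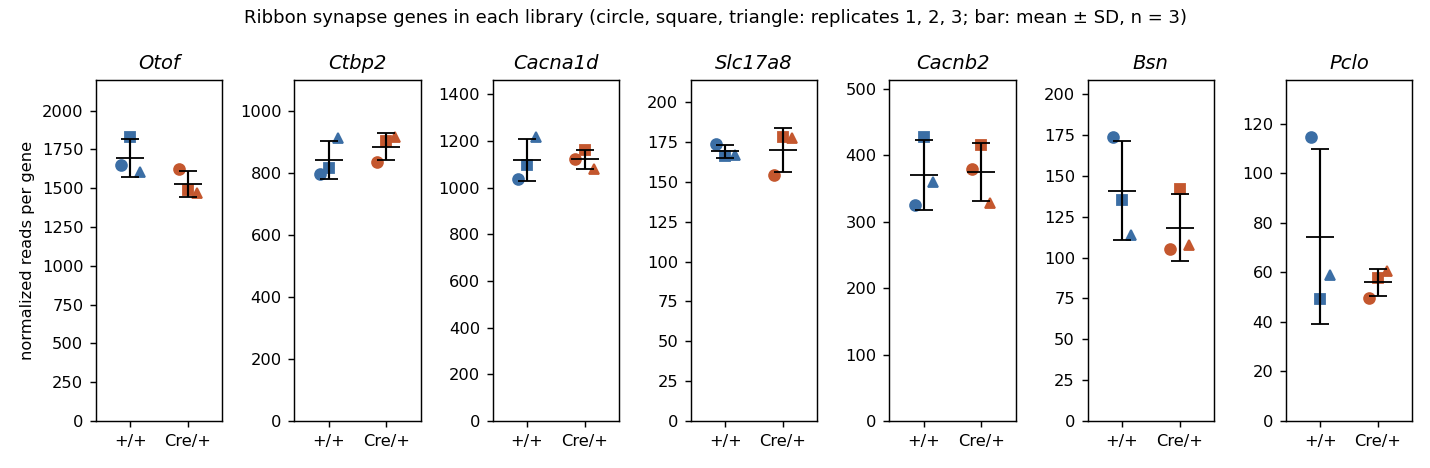
Normalized reads per gene (vertical axis, from 0, on a scale of its own for each gene) for the 7 ribbon synapse genes in Gfi1+/+ (blue) and Gfi1Cre/+ (orange) libraries. Circles, squares and triangles are replicates 1, 2 and 3, and bars show the mean ± SD (n = 3). Genotypes overlap for every gene, and the Gfi1+/+ replicate 1 circle is the highest point for Bsn (174) and Pclo (114.8).

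Vesicle release and loading were represented by Otof and Slc17a8. Otof (ENSMUSG00000062372, chr5:30367062-30461932, minus strand) encodes otoferlin, the calcium sensor of exocytosis in HCs. Its libraries gave 1650, 1832 and 1601 normalized reads for Gfi1+/+ and 1620, 1490 and 1467 for Gfi1Cre/+. Gfi1+/+ replicate 2 was the highest library, the lowest 2 were both Gfi1Cre/+, and the genotypes overlapped only through Gfi1Cre/+ replicate 1, which lay just above Gfi1+/+ replicate 3. Otof means were 1695 ± 122 (SD, n = 3) in Gfi1+/+ and 1525 ± 82.4 in Gfi1Cre/+. Otof had a log2 fold change of -0.15 (SE 0.069, 95% interval -0.31 to 0.0046), which is a change of -9.91% with an interval from -19.1% to 0.319% (limma adjusted p = 0.999). The Otof value moved with single libraries. It was -0.19 with Gfi1+/+ replicate 3 left out (limma adjusted p = 0.203) and -0.19 with Gfi1Cre/+ replicate 1 left out (limma adjusted p = 0.999). In both settings the unadjusted p was under 0.05, as it was for 16.2% and 2.17% of all genes. With Gfi1+/+ replicate 2 left out the value was -0.093, and without replicate 1 of Gfi1+/+ it was -0.17, neither with an unadjusted p under 0.05.

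Slc17a8 (ENSMUSG00000019935, chr10:89574020-89621253, minus strand) encodes VGLUT3, the transporter that fills inner HC vesicles with glutamate. Slc17a8 gave 174.0, 166.5 and 166.7 normalized reads for Gfi1+/+ and 154.1, 178.4 and 177.4 for Gfi1Cre/+. The Gfi1Cre/+ libraries held both the lowest and the highest values and enclosed all 3 Gfi1+/+ libraries. Mean levels came to 169 ± 4.32 in Gfi1+/+ and 170.0 ± 13.8 in Gfi1Cre/+ (SD, n = 3). The log2 fold change of Slc17a8 was 0.0046 (SE 0.098, 95% interval -0.22 to 0.23, limma adjusted p = 0.999), and the interval spans folds from 0.860 to 1.17. With 141 to 201 counted reads per library, counting alone gives a coefficient of variation of 8.09% in Gfi1+/+ and 7.28% in Gfi1Cre/+, and the observed 2.55% and 8.11% were below or close to these values.

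Ctbp2 (ENSMUSG00000030970, chr7:132987563-133124354, minus strand) gives rise both to RIBEYE, the main protein of the ribbon, and to the transcriptional corepressor CtBP2. In the annotation the RIBEYE transcript codes for 988 codons and the CtBP2 transcript for 445, and they share 1277 coding bases. The gene count therefore pools both, and 56.9% of the RIBEYE coding sequence lies in no coding part of the CtBP2 transcript. For Ctbp2 the libraries gave 796, 814 and 910 normalized reads in Gfi1+/+ mice and 835, 902 and 916 in Gfi1Cre/+ mice. The genotypes were interleaved, with the lowest 2 libraries both Gfi1+/+. Means of 840 ± 61.5 and 884 ± 43.5 (SD, n = 3) gave a log2 fold change of 0.075 (SE 0.071, 95% interval -0.085 to 0.24, limma adjusted p = 0.999). Its exons share 314 bases, or 5.05% of the exon length, with Fgfr2 on the same strand.

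Bassoon and piccolo are large related scaffold proteins of the presynaptic active zone, and bassoon anchors the ribbon in inner HCs. Bsn (ENSMUSG00000032589, chr9:108096022-108190384, minus strand) gave 174, 135 and 114 normalized reads for Gfi1+/+ and 105, 142 and 108 for Gfi1Cre/+. Pclo (ENSMUSG00000061601, chr5:14514918-14863459, plus strand) gave 114.8, 49.2 and 59.1 for Gfi1+/+ and 49.6, 57.7 and 60.4 for Gfi1Cre/+. Both genes were highest in Gfi1+/+ replicate 1, at 1.53 times the median of the other 5 libraries for Bsn and 1.99 times for Pclo, and among the other libraries the genotypes were mixed. For Bsn, means of 141 ± 30.5 and 118 ± 20.6 (SD, n = 3) gave a log2 fold change of -0.24 (SE 0.18, 95% interval -0.65 to 0.16, limma adjusted p = 0.999). For Pclo, means of 74.4 ± 35.4 and 55.9 ± 5.61 (SD, n = 3) gave -0.31 (SE 0.29, 95% interval -0.97 to 0.35, limma adjusted p = 0.999). Without Gfi1+/+ replicate 1 the log2 fold change was -0.081 (SE 0.17) for Bsn and 0.046 (SE 0.19) for Pclo. Without Gfi1+/+ replicate 3 Bsn was at -0.38 (limma adjusted p = 0.307) with an unadjusted p-value under 0.05, in the setting in which 16.2% of all genes had one. Only 47 to 93 reads per library lay behind the Pclo values, and the Gfi1+/+ coefficient of variation of 47.6% was well above the 12.4% that counting alone gives.

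The calcium channel of the HC synapse was represented by its pore-forming and its beta subunit. Cacna1d (ENSMUSG00000015968, chr14:30039939-30491455, minus strand) encodes the L-type pore subunit through which most calcium enters inner HCs. Cacna1d gave 1039, 1099 and 1219 normalized reads for Gfi1+/+ and 1121, 1160 and 1082 for Gfi1Cre/+. All 3 Gfi1Cre/+ libraries lay within the range of the Gfi1+/+ libraries. Means of 1119 ± 91.7 and 1121 ± 39.0 (SD, n = 3) gave a log2 fold change of 0.0049 (SE 0.070, 95% interval -0.15 to 0.16, limma adjusted p = 0.999), which spans changes from -10.0% to 11.9%. Cacna1d shares 589 exon bases (4.67%) with Chdh on the opposite strand, and the strand setting of the counting was not given in the sources used here.

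Cacnb2 (ENSMUSG00000057914, chr2:14603088-14987908, plus strand) encodes the beta subunit that brings this channel to the membrane of inner HCs. Cacnb2 gave 325, 428 and 360 normalized reads for Gfi1+/+ and 379, 415 and 328 for Gfi1Cre/+. The Gfi1+/+ libraries held the lowest and the highest values and enclosed all Gfi1Cre/+ libraries. Means of 371 ± 52.7 and 374 ± 43.8 (SD, n = 3) gave a log2 fold change of 0.017 (SE 0.12, 95% interval -0.25 to 0.29, limma adjusted p = 0.999). The interval spans changes from -16.1% to 22.0%.

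**Figure D2:**
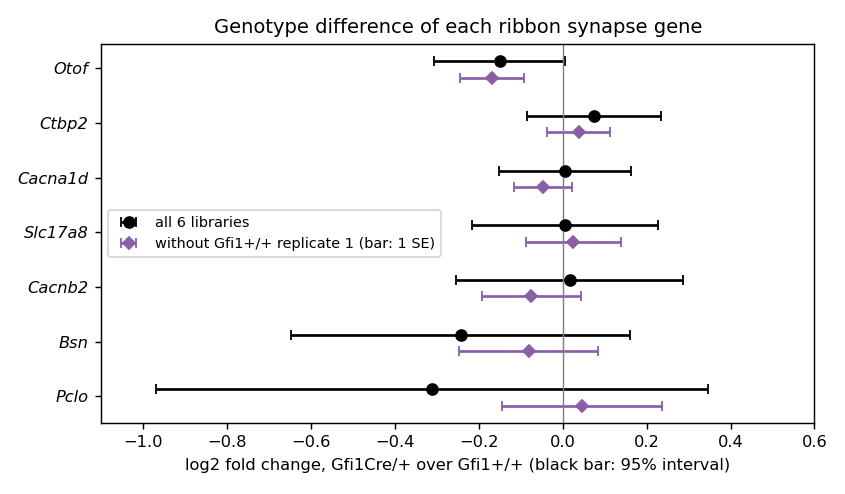
Log2 fold change of each ribbon synapse gene, Gfi1Cre/+ over Gfi1+/+ (horizontal axis), from limma on log2(normalized reads + 1). Black points and bars show all 6 libraries with the 95% interval, and purple diamonds and bars show the value without Gfi1+/+ replicate 1 with 1 SE. Every black interval includes 0, and the diamond of Pclo lies at 0.046 where its black point lies at -0.31.

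The 95% intervals set what these libraries could resolve. The narrowest interval belonged to Otof and the widest to Pclo, whose interval ran from -48.9% to 27.0%. For Slc17a8, Ctbp2, Cacna1d and Cacnb2, changes beyond the bounds given above lay outside the interval, and smaller ones could not be told from 0 in 3 libraries against 3.

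Levels between the genes were compared as normalized reads per kilobase of merged exon, over all 6 libraries. Otof was first with 203.7 ± 16.6 (SD, n = 6), followed by Ctbp2 with 138.6 ± 8.60 and Cacna1d with 88.8 ± 4.99. Slc17a8 came next with 35.9 ± 1.94 and Cacnb2 with 28.2 ± 3.28, ahead of Bsn with 8.14 ± 1.66 and Pclo with 2.90 ± 1.10. The ranges of neighbours in this order did not overlap over the 6 libraries. Parts of the order depended on the length used, because merged exons include those of noncoding and retained-intron transcripts, which make up much of Cacnb2. Divided instead by the longest annotated coding transcript, a choice made after the values had been seen, Cacnb2 stood above Slc17a8 (94.46 ± 10.99 against 38.0 ± 2.05), and Ctbp2 (239 ± 14.8) and Otof (226 ± 18.4) overlapped. By either length Cacna1d came after Otof and Ctbp2, and Bsn and Pclo came last.

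Each gene was also related to Myo7a, a myosin of the HC bundle, within its own library, which gives a level relative to an HC transcript. Otof stood at 2.52 ± 0.381 times Myo7a in Gfi1+/+ and 2.32 ± 0.176 times in Gfi1Cre/+ (SD, n = 3). The difference of the log2 ratios was -0.11 (exact permutation p = 0.6, two-sided, adjusted p = 0.98). Slc17a8 stood at 0.252 ± 0.0365 and 0.258 ± 0.0193 times Myo7a (difference 0.042 on the log2 scale, exact permutation p = 0.9, adjusted p = 1). Ctbp2 and Cacna1d had differences of 0.11 and 0.042, with exact permutation p-values of 0.3 and 0.4. Differences were -0.21 for Bsn, -0.28 for Pclo and 0.054 for Cacnb2, with exact permutation p-values of 0.7, 1 and 0.7. The smallest p-value that 3 libraries against 3 allow is 0.1, so that this test could not pass 0.05. Without Gfi1+/+ replicate 1 the difference was 0.041 for Bsn and 0.17 for Pclo.

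Within their gene families the ribbon synapse genes took very different shares of the reads per kilobase of merged exon. Slc17a8 was the most abundant vesicular glutamate transporter, with 35.9 normalized reads per kilobase against 13.8 for Slc17a7 and 7.69 for Slc17a6, the transporters VGLUT1 and VGLUT2 of neurons. By the longest coding transcript Slc17a8 (38.0 ± 2.05) still had the higher mean, but its range overlapped that of Slc17a7 (25.5 ± 10.4). The Slc17a8 share by that length was 46.4 ± 3.66% in Gfi1+/+ and 60.95 ± 12.97% in Gfi1Cre/+. Per kilobase of merged exon, the Slc17a8 share came to 54.6%, 54.6% and 62.8% for Gfi1+/+ and 82.1%, 68.8% and 61.2% for Gfi1Cre/+. Gfi1Cre/+ replicate 1 was highest and Gfi1Cre/+ replicate 3 lay inside the Gfi1+/+ range. Family shares were compared by the same exact permutation test as the ratios. Its smallest p-value with 3 libraries against 3 is 0.1, so that no share could pass 0.05. The Slc17a8 means, 57.3 ± 4.72% and 70.7 ± 10.6% (SD, n = 3), differed by 13.4 percentage points (exact permutation p = 0.2, two-sided, adjusted p = 0.6 over 6 genes), and by 7.70 without Gfi1Cre/+ replicate 1. That library had the lowest values of both paralogues, with 15.7 normalized reads of Slc17a6 and 22.6 of Slc17a7, and also the lowest of the 6 values of Slc17a8 itself.

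Otof took 47.6 ± 3.19% of the reads per kilobase of 5 ferlin genes in Gfi1+/+ and 45.4 ± 1.42% in Gfi1Cre/+ (exact permutation p = 0.4), with Myof at 137.6 and Dysf at 54.8 normalized reads per kilobase. By the longest coding transcript Otof and Myof overlapped (226 ± 18.4 and 244 ± 10.8). Bsn took 73.6 ± 5.68% and 74.7 ± 3.07% of the pair it forms with Pclo (exact permutation p = 0.8). Ctbp2 was the minor CtBP gene, with 14.1 ± 0.694% and 14.3 ± 1.12% (exact permutation p = 0.9), beside Ctbp1 at 837 normalized reads per kilobase. Cacna1d took 28.9 ± 0.452% and 29.9 ± 0.871% of 8 pore subunit genes (exact permutation p = 0.2), second to the T-type Cacna1g at 133.8 normalized reads per kilobase. Cacnb2 took 4.59 ± 0.789% and 4.50 ± 0.547% of the beta subunits (exact permutation p = 0.8), far behind Cacnb3 at 519.7. Against Cacnb1 the order turned with the length, since Cacnb1 stood at 67.1 and Cacnb2 at 28.2 per kilobase of merged exon, but at 89.5 ± 6.41 and 94.46 ± 10.99 by the longest coding transcript, where they overlapped and the Cacnb2 share was 10.03 ± 1.62% and 9.84 ± 1.12%. The beta subunit named for the inner HC channel was thus a small part of the beta subunit RNA of the duct, and the cells that hold the rest cannot be told from these libraries.

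**Figure D3:**
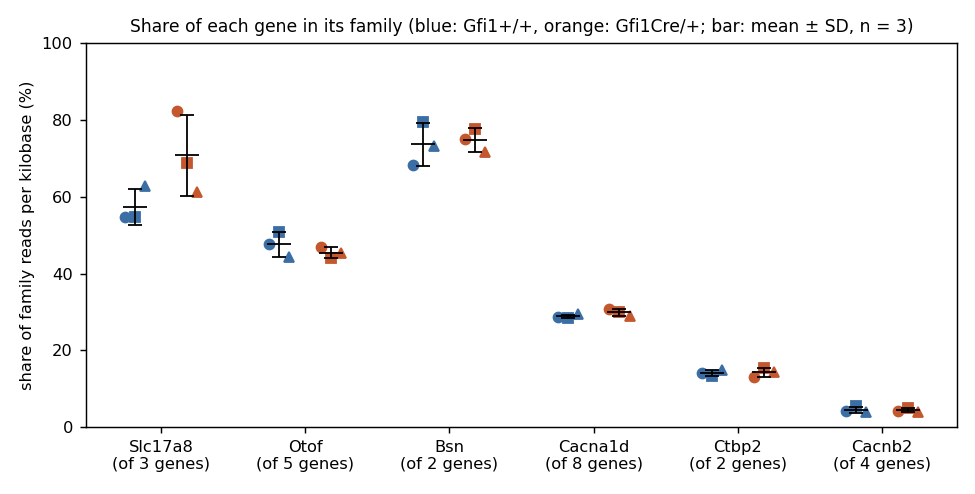
Share of each ribbon synapse gene in the normalized reads per kilobase of merged exon of its gene family (vertical axis, %), with the number of family genes under each symbol, for Gfi1+/+ (blue) and Gfi1Cre/+ (orange) libraries. Circles, squares and triangles are replicates 1, 2 and 3, and bars show the mean ± SD (n = 3). The Slc17a8 share runs from 54.6% to 82.1% and the other shares differ less between the genotypes.

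Presynaptic partners of the ribbon synapse were taken from 5 lists with 46 genes in all, of which 44 could be tested. None had an adjusted limma p-value under 0.05, 3 were lower in Gfi1Cre/+ at an unadjusted p-value under 0.05 (2.02% of all genes were) and 0 were higher. Of the 44 log2 fold changes, 34 were below 0, with a median of -0.077. Gfi1+/+ replicate 1 was the highest of the 6 libraries in 32 of the 44 genes, or 72.7%, against 24.9% of all genes. Without that library 32 of the 44 were below 0 with a median of -0.028, and 1 had an unadjusted p-value under 0.05, as did 2.1% of all genes in that setting.

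By role, the active zone scaffold list had 7 of 8 fold changes below 0 (median -0.33) and vesicle priming and fusion had 8 of 10 (median -0.25). Across these lists the genes with an unadjusted p-value under 0.05 were Ppfia3, a liprin of the active zone, Unc13a, the priming factor Munc13-1 of central synapses, and Syt7, a synaptotagmin. Ppfia3 had means of 148 ± 45.4 and 80.6 ± 21.1 (SD, n = 3) with no overlap (log2 fold change -0.86, limma adjusted p = 0.999). Unc13a had a log2 fold change of -0.53 and Syt7 of -0.71 (limma adjusted p = 0.999 for both). Without Gfi1+/+ replicate 1 the 3 values were -0.62, -0.30 and -0.45, and of these Ppfia3 alone kept an unadjusted limma p under 0.05. The most abundant genes of the lists, Erc1 (0.042) and Unc13b (0.044), had log2 fold changes near 0. RIM genes, which tether channels and vesicles at active zones, had log2 fold changes of -0.55 for Rims1 and -0.51 for Rims2, neither with an unadjusted limma p under 0.05, and Gfi1+/+ replicate 1 was highest in each.

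The remaining presynaptic lists held no gene with an unadjusted limma p-value under 0.05. Vesicle retrieval genes had 8 of 10 fold changes below 0 (median -0.14), with Ap2a1 of the clathrin adaptor as the most abundant at 0.077. Partners of the calcium channel had 7 of 10 below 0 (median -0.055), led in level by Calm3, a calmodulin gene, at -0.071. Cacna2d2, the auxiliary subunit of the HC channel, had 1018 ± 35.9 normalized reads in Gfi1+/+ and 1037 ± 47.9 in Gfi1Cre/+ (SD, n = 3). Genes of vesicle acidification and otoferlin membrane insertion had 4 of 6 below 0 (median -0.046). Among them Wrb and Asna1, whose products insert otoferlin in the membrane, had log2 fold changes of 0.015 and -0.073.

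On the afferent side, all 12 postsynaptic genes tested had a log2 fold change below 0, with a median of -0.22 and of -0.13 without Gfi1+/+ replicate 1. That library was the highest of the 6 for 6 of the 12 genes and for their summed level, at 4000 normalized reads against 3391 to 3725 in the others. An unadjusted limma p-value under 0.05 was reached by Gria2, an AMPA receptor subunit (-0.85), and by Shank1, a scaffold of the postsynaptic density (-0.64), with an adjusted p of 0.999 for both. Without Gfi1+/+ replicate 1 only Shank1 of the list had such an unadjusted p-value. The genotypes did not overlap for Gria2, Shank1 and Shank3, against 4.07% of all genes in that direction. Dlg4, the most abundant of the list, was at -0.029.

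The lists were set beside markers of the cells a duct dissection holds. Of 27 spiral ganglion neuron markers, 25 were highest in Gfi1+/+ replicate 1, and their summed level came to 26870, 18440 and 13210 normalized reads for Gfi1+/+ and 14160 to 14760 for Gfi1Cre/+. In the genotype comparison 26 of the 27 had a log2 fold change below 0 (median -0.77), 11 of them with an unadjusted limma p-value under 0.05 (2.02% of all genes in that direction), and without that library the median was -0.20 and 5 had such a p-value (2.1% of all genes in either direction). Nefm, a neurofilament, ran from 3449 in Gfi1+/+ replicate 1 to 178.4 in Gfi1Cre/+ replicate 1, and no marker of the list was at 0 in any library. The glia markers were also highest there, summing to 43250, 24340 and 26420 for Gfi1+/+ and 20030 to 30200 for Gfi1Cre/+, and the myelin gene Mbp stood at 18870 in Gfi1+/+ replicate 1 against 2508 to 4216 elsewhere. Bsn, Pclo and the active zone, priming and postsynaptic lists were thus highest in the library that was highest in neuron and glia markers, and the part of these markers in their values was not tested.

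HC markers were more even across the libraries. The summed level of 22 HC markers was 13380 to 14060 normalized reads in Gfi1+/+ and 13330 to 13480 in Gfi1Cre/+. Much of this sum came from Myo6 and Triobp, with means of 3763 and 2691 over the 6 libraries and log2 fold changes of 0.031 and 0.046. Of 21 markers tested, 15 had a log2 fold change below 0 (median -0.083). Gfi1+/+ replicate 1 was the highest library for 9 of the 21, or 42.9%, against 24.9% of all genes. Tmie, a component of the mechanotransduction channel, was the single one with an unadjusted limma p-value under 0.05 (log2 fold change 0.28, adjusted p = 0.999). The 9 outer HC markers summed to 5020 to 6165 and 5032 to 5432. Of these, 8 had a log2 fold change below 0 (median -0.11), where 50.1% of all genes did, and 0 had an unadjusted limma p-value under 0.05. Without Gfi1+/+ replicate 1, 8 of the 9 were below 0 with a median of -0.046. Supporting cell markers summed to 133900 to 152100 in Gfi1+/+ and 139500 to 149800 in Gfi1Cre/+. All 15 erythroid genes had a log2 fold change above 0 (median 0.64), 10 of them with an unadjusted limma p-value under 0.05 (1.02% of all genes in that direction). Without Gfi1+/+ replicate 1 these were 4 (2.1% of all genes in either direction). Their mean log2 deviation from the mean of the 6 libraries was -1.03, -0.597 and -0.368 in Gfi1+/+ and 1.49, 0.480 and 0.032 in Gfi1Cre/+. The part of the erythroid genes in the member values was not tested.

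**Figure D4:**
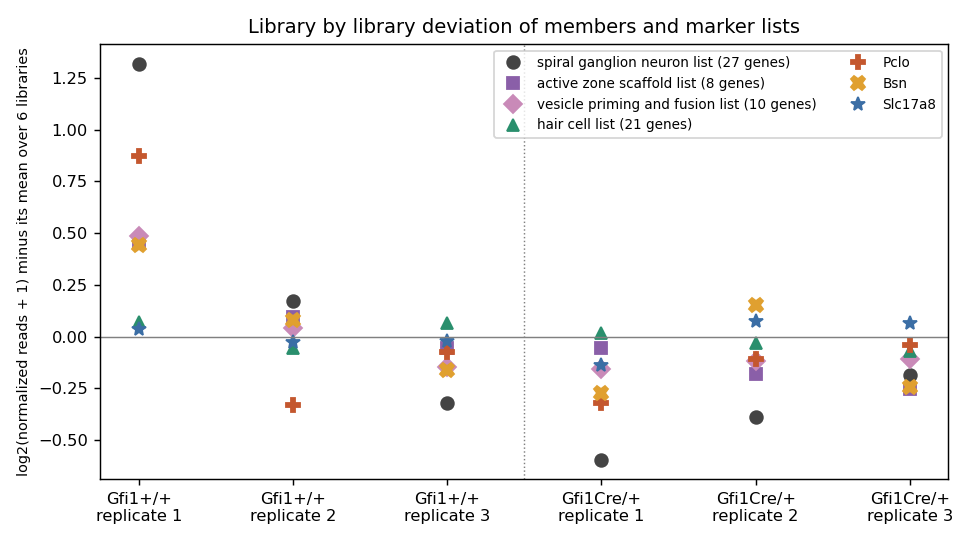
Deviation of Pclo, Bsn, Slc17a8 and 4 gene lists in each library from the mean over 6 libraries, on the log2(normalized reads + 1) scale (vertical axis), with lists as the mean over their genes and the dotted line between the genotypes. In Gfi1+/+ replicate 1 the neuron list lies at 1.32, with Pclo, Bsn and the active zone and priming lists also above 0.4, while the HC list (0.072) and Slc17a8 lie near 0.

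Likeness across the 6 libraries was described by Pearson's r over log2 values, among genes that averaged 200 or more normalized reads. The libraries are shared by every gene, and with only 6 of them high values of r arise among many genes. Pclo was most like Lynx1, Phyhipl and Eid2 (r = 0.994, 0.993 and 0.990), and Bsn was most like Mrpl39, Fbxl16 and Nrcam (0.988, 0.986 and 0.983). Otof was most like Alkbh3, Xpot and Hnrnpdl (0.987, 0.986 and 0.981), and Slc17a8 was most like Ankrd17, Ulk2 and Cast (0.983, 0.972 and 0.970). Ctbp2 went with Gab1, Adamts17 and 2310047M10Rik (0.996, 0.993 and 0.992), Cacna1d with Trmt61a and Bag5 (0.991 and 0.990), and Cacnb2 with Tstd2, Pi4kb and Efna2 (0.983, 0.979 and 0.976). Among the members themselves r ran from -0.767 for Otof with Ctbp2 to 0.732 for Bsn with Pclo, so that no member was among the 3 genes most like another.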

How the data were processed

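RNA-seq of cochlear ducts was analysed in 6 libraries, 3 per genotype. Per the labels, the submitters' processing notes name TopHat, HTSeq and mm10, and the methods add that uniquely mapped reads were counted per gene and genes with at least 40 reads kept. Versions, annotation and strand setting are not given in the sources used here. The methods describe quantile normalization, but the deposited signal was in every column (100% of values) a whole count divided by 1 size factor, between 0.810 and 1.15. The tolerance was 0.006 in the units of the signal, plus an allowance for the uncertainty of the size factor that grew with the count. Reads were recovered from the signal.

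Genes with a signal of at least 40 in at least 1 library (14455; 410 left out) were tested with limma 3.58.1 in R 4.3.3 (lmFit, eBayes with trend, two-sided) on log2(signal + 1), which understates changes of low genes, with Benjamini-Hochberg adjustment over all of them. A fold change is Gfi1Cre/+ over Gfi1+/+. edgeR 4.0.16 and DESeq2 1.42.0 on recovered reads, other pseudocounts, filters and scalings, a replicate block and each library left out were alternatives. Ratios to Myo7a and family shares used exact permutation tests (scipy 1.17.1). Positions and exon lengths were read from GENCODE (GRCm38), and the longest coding transcript as length was added after the values had been seen. Coefficients of variation from counting cover counting error only. The intervals of the fold changes rest on the limma SE, which includes the spread between libraries.

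The members, gene lists and tests were chosen with earlier results of these data known. Named are all members, their family genes, per list the most abundant gene and up to 5 genes with the largest change at an unadjusted p under 0.05, checks (Gfi1, Myo7a, Slc26a5, Y-linked genes) and the 3 genes most like each member, of which 1 is not reported here. Nefm represents the neuron list, and Rims1, Rims2, Cacna2d2, Wrb, Asna1, Shank3 and Triobp were added after their values were seen. The limma, edgeR and DESeq2 fits were tested on simulated counts.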

Additional observations from a re-analysis of the deposited data

How the results depend on the processing

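Outside leaving out a library, and also with the longest coding transcript as length (added after the values had been seen), no fold change, ratio or share of a ribbon synapse gene changed direction and none of the 7 was called under any alternative, while the count of genes called was 4 in limma, 10 with DESeq2 and 0 among genes with a mean of at least 200, where 229 had an unadjusted p under 0.05 and Bsn, Pclo and Slc17a8 were not tested. Same-numbered libraries of the genotypes did not deviate together (correlations -0.0944, 0.107 and -0.0326). No sign of pairing by number was thus seen, but with 3 libraries per genotype such correlations cannot exclude it. With the replicate block the log2 fold changes stayed the same (Otof -0.15), 0 members and 4 genes were called and 462 genes had an unadjusted p under 0.05.

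Leaving out 1 library moved log2 fold changes from -0.19 to -0.093 for Otof, -0.032 to 0.073 for Slc17a8, 0.038 to 0.13 for Ctbp2, -0.38 to -0.081 for Bsn, -0.56 to 0.046 for Pclo, -0.047 to 0.068 for Cacna1d and -0.074 to 0.12 for Cacnb2. Members called stayed at 0, members with an unadjusted p under 0.05 ran from 0 to 2 (without Gfi1+/+ replicate 3), genes called from 0 (without Gfi1Cre/+ replicate 3) to 48 (without Gfi1+/+ replicate 3), and genes with an unadjusted p under 0.05 from 216 (without Gfi1Cre/+ replicate 2) to 2340 (without Gfi1+/+ replicate 3). Log2 ratio differences to Myo7a ran from -0.25 to -0.046 for Otof, -0.061 to 0.15 for Slc17a8, 0.066 to 0.16 for Ctbp2, -0.44 to 0.041 for Bsn, -0.51 to 0.17 for Pclo, 0.013 to 0.075 for Cacna1d and -0.056 to 0.17 for Cacnb2. Share differences ran from 7.70 to 18.2 percentage points for Slc17a8, -3.80 to -0.61 for Otof, -0.39 to 0.73 for Ctbp2, -1.59 to 4.08 for Bsn, 0.63 to 1.49 for Cacna1d and -0.39 to 0.36 for Cacnb2. The cause was not tested. Where an arm is left with 2 libraries, its spread is estimated from both arms together. At 47 to 93 reads per library, depth limits Pclo most.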
